A study of Mus musculus with 24 samples.

Results

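The genes described here are 37 marker genes of blood vessel endothelium, taken as the rows of the raw count table whose Ensembl gene identifiers carry the listed symbols in GENCODE M21, out of 55401 identifiers in all. The VEGF, Notch and Tie genes of endothelium were not among them. The tumors were grown from TC2Ras, prostate adenocarcinoma cells of the mouse that descend from TRAMP-C2 and carry activated H-Ras, placed in the tibiae (as a luciferase-bearing derivative) or under the skin of the flanks of male C57/BL6 mice 8 to 10 weeks of age. RNA-seq was done on 24 tumors in 10 groups, and the comparisons ask how the cytokine IL-27 and the receptor tyrosine kinase inhibitor cabozantinib (cabo), alone or together, changed the tumor transcriptome in bone. Every animal received a plasmid by sonoporation into muscle, either the empty vector or a vector encoding IL-27.

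The 20 intratibial tumors formed 8 groups. At day 14 (D14) there were 3 tumors each of control (empty vector with the gavage vehicle), IL-27 (IL-27 vector with vehicle), cabo (empty vector with cabozantinib) and IL-27+cabo (IL-27 vector with cabozantinib). The same treatments were sampled in 2 tumors each at end-of-study (EOS), when a mouse reached its ethical endpoint. The labels give no day for EOS. The paper reports longer survival with cabo and with IL-27+cabo than in control, so EOS tumors may differ in age by treatment. Cabo was given daily over the opening fortnight only, so EOS tumors were taken after dosing had stopped. The 4 subcutaneous tumors were 2 controls with the empty vector and 2 IL-27 tumors, harvested about a week after implantation. Intratibial labels gave mouse numbers and are used here as tumor names. The subcutaneous labels named no animals, and since each flank could carry a tumor, p-values there may measure technical spread or spread within an animal.

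Endothelial cells line all blood vessels and are held together by junction proteins such as VE-cadherin, PECAM1 and claudin-5, which set how much the wall leaks. Transcription factors, among them Erg of the ETS family, the SoxF proteins and Tal1, a partner of GATA factors, establish and keep their identity. Capillary endothelium also carries specialised proteins, for example the platform that holds lipoprotein lipase on the luminal surface, and VEGF signalling through its receptors, a known target of cabozantinib, is a main support of capillary growth and survival. Bone holds both capillary and sinusoidal vessels, and endomucin is a widely used marker of both.

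Libraries held 63729005 to 83782258 counts. Levels are given as CPM, gene counts scaled to the TMM-normalized library size, with intratibial and subcutaneous tumors normalized apart, and a gene is called where the edgeR quasi-likelihood F test gave a Benjamini-Hochberg adjusted p under 0.05 over all genes tested. All 37 members passed the filter on low counts in every comparison. IL-27+cabo mouse 20 (D14) stood apart, with the lowest total and a TMM factor of 0.838. Across the 37 members its deviation from the other tumors of its group ran with log2 exon length at r = −0.62, as a description over genes, and that of D14 IL-27 mouse 8 did so at r = −0.65. Mouse 20 had 6 members (Cldn5, Icam2, Egfl7, Plvap, Gpihbp1 and Ushbp1) more than 1 log2 unit above its group and 8 members such as Ptprb, Vwf and Shank3 more than 1 below, and mouse 8 had 2 above and none below. Member counts in comparisons that use mouse 20 are given with and without it. Markers of osteoblasts summed to 0.350 to 3.13 CPM across the intratibial tumors, with 1 to 4 of the 6 markers at 0 in each, so RNA of bone-forming cells was near 0. By contrast the epithelial markers of the tumor cells summed to 24.8 to 308.2 CPM.

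In control tumors at D14 the endothelial markers were all present. Per kilobase of exon, Podxl (podocalyxin, a sialomucin also made by other cell types) was highest at 26.2 ± 3.09 CPM per kb (SD, n = 3). Cdh5, which encodes VE-cadherin, followed at 21.2 ± 7.42 and Plvap, the protein of fenestral diaphragms, at 17.5 ± 3.68 CPM per kb. Pecam1 stood at 9.28 ± 1.47 CPM per kb. The lowest were Sox17 at 0.387 ± 0.132 and Tal1 at 0.300 ± 0.154 CPM per kb. All 36 pairs of neighbours in this order had overlapping ranges, so only distant ranks are separated by more than the spread between tumors.

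The mean log2 CPM over the 37 members gave a level for the whole set in each tumor. It was 3.58, 3.83 and 3.32 in D14 controls (mice 3, 5 and 7) and 3.35, 3.31 and 3.63 in D14 IL-27 tumors (mice 4, 6 and 8). It was 2.57, 2.92 and 2.66 in D14 cabo tumors (mice 21, 25 and 27) and 2.59, 2.64 and 2.82 in D14 IL-27+cabo tumors (mice 20, 22 and 24). All 6 tumors taken under cabo lay below all 6 taken without it. At EOS the order was the other way: 3.22 and 3.75 in controls (mice 13 and 9), 3.24 and 3.33 with IL-27 (mice 10 and 12), 4.12 and 3.85 with cabo (mice 19 and 23), and 3.82 and 4.29 with IL-27+cabo (mice 16 and 28). All 4 EOS tumors of mice that had received cabo lay above the 4 of mice that had not. Subcutaneous controls had 3.92 and 4.13 and subcutaneous IL-27 tumors 3.14 and 4.21, on a separate normalization. No p-value is attached to this mean, because the member list was drawn up with results of these data known. In bulk tumors, fewer endothelial cells and less of these RNAs per endothelial cell cannot be told apart.

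**Figure D1:**
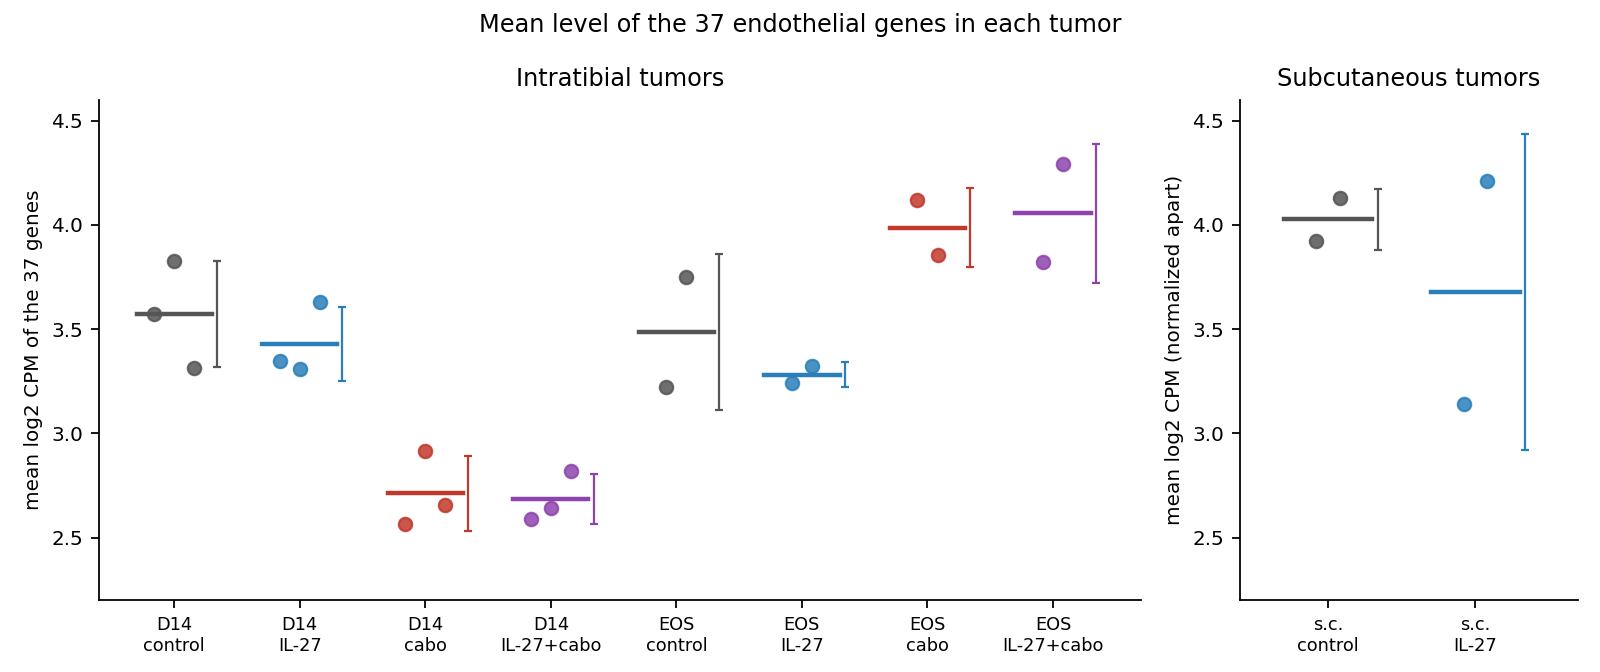
Mean TMM log2 CPM over the 37 pan-endothelial genes (vertical axis) in each tumor (points) by group, with the group mean as a line and the SD as a bar beside it; subcutaneous and intratibial tumors were normalized apart. The 6 D14 tumors under cabo sit between 2.57 and 2.92 and the 4 EOS tumors of cabo-treated mice between 3.82 and 4.29.

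With cabo alone at D14, 9 of 37 members fell and none rose, against 0.693% of 18627 genes called lower in this comparison. The fallen genes were Gpihbp1, Emcn, Cldn5, Egfl7, Mcam, Plvap, Icam2, She and Mmrn2. At an unadjusted p under 0.05, 21 members were lower, against a background of 9.27%, and Sox7 and Shank3 were higher. In 22 members every cabo tumor lay below every control tumor, against 11.9% of all genes. The median log2 fold change over the members was −1.0, with 32 negative and 5 positive, and the median over all genes was −0.01.

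Gpihbp1 (ENSMUSG00000022579, GRCm38 chr15:75596628-75599481) encodes the anchor that carries lipoprotein lipase across capillary endothelium. It was measured at 11.2, 14.7 and 9.67 CPM in controls and at 1.22, 1.24 and 0.641 CPM in cabo tumors. The highest cabo tumor had far less than the lowest control, and the fitted level was 0.0862 of control (log2 fold change −3.54 ± 0.30 SE, adjusted p = 0.00314). Emcn (ENSMUSG00000054690, chr3:137341067-137432185) encodes endomucin, a sialomucin of capillary and venous endothelium. It was at 20.5, 19.2 and 13.8 CPM in controls and 2.00, 3.11 and 3.24 CPM under cabo. The groups did not overlap, and the fold change was −2.70 ± 0.24 on the log2 scale, 0.154 of control (adjusted p = 0.00314). Cldn5 (ENSMUSG00000041378, chr16:18776847-18778262) encodes claudin-5, the main tight junction claudin of endothelium. It was at 6.30, 9.78 and 9.34 CPM in controls and 1.55, 1.13 and 1.04 CPM under cabo, again without overlap. Its log2 fold change was −2.80 ± 0.26 (0.144 of control, adjusted p = 0.00331).

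Other members lay closer to their control levels. Cd34, a sialomucin that stromal and blood progenitor cells also carry, was at 130.0, 85.5 and 86.3 CPM in controls and 103.2, 119.2 and 83.9 CPM under cabo. The ranges overlapped and the log2 difference was 0.00 ± 0.19 (adjusted p = 0.998). Ecscr, a small endothelial membrane protein, was at 10.5, 9.86 and 10.5 CPM in controls and 8.97, 9.41 and 8.19 CPM under cabo. Every cabo tumor lay below every control, but the log2 difference was only −0.23 ± 0.13 (adjusted p = 0.362). The classical junction genes lay between these extremes. Cdh5 was at 75.0, 124.8 and 67.4 CPM in controls and 72.7, 54.6 and 79.7 CPM under cabo, with overlapping ranges and a log2 difference of −0.39 ± 0.24 (adjusted p = 0.429). Pecam1, the adhesion molecule CD31, was at 63.9, 62.3 and 47.3 CPM in controls and 32.5, 48.6 and 33.2 CPM under cabo. Its log2 difference of −0.62 ± 0.18 did not pass the adjusted threshold (adjusted p = 0.137).

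By role, 4 of 10 junction and sialomucin genes fell, with a median log2 fold change of −0.89. Besides Cldn5 and Emcn these were Mcam, the adhesion molecule CD146 that pericytes also carry (−1.57 ± 0.26, adjusted p = 0.0320), and Icam2, an endothelial ligand of leukocyte integrins (−2.11 ± 0.37, adjusted p = 0.0378). Mcam was at 55.7, 53.5 and 31.7 CPM in controls against 12.8, 14.0 and 21.2 CPM under cabo. Icam2 stood at only 2.61, 3.07 and 2.36 CPM in controls against 0.345, 0.642 and 0.904 CPM. Neither gene's ranges overlapped.

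Among the capillary genes, 2 of 3 fell. Besides Gpihbp1, Plvap dropped from 34.4, 42.3 and 27.7 CPM to 7.75, 15.4 and 13.5 CPM (log2 fold change −1.53 ± 0.26, adjusted p = 0.0347). Nos3, endothelial nitric oxide synthase, had −1.23 ± 0.27 and missed the threshold (adjusted p = 0.0696). Of the secreted and matrix genes 2 of 3 fell: Egfl7, a matrix protein of growing vessels that hosts the microRNA miR-126 (−1.12 ± 0.17, adjusted p = 0.0236), and Mmrn2, a matrix ligand of CD93 and CLEC14A (−1.12 ± 0.20, adjusted p = 0.0417). The exons of Egfl7 overlap those of Mir126a and Agpat2 among others, and no source used here states whether counting used strand. Vwf, von Willebrand factor, had 0.62 ± 0.61 (adjusted p = 0.631).

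None of the 9 receptors and co-receptors passed (median log2 fold change −0.41, 3 lower at an unadjusted p under 0.05). Ramp2, the co-receptor that turns the calcitonin receptor-like receptor into an adrenomedullin receptor, came closest at −1.09 ± 0.22 (adjusted p = 0.0533), while its partner Calcrl had −0.43 ± 0.19 (adjusted p = 0.281). Its exons overlap those of Vps25 on the same strand. Of 7 genes acting inside the cell only She, an SH2 adaptor, fell (−1.29 ± 0.23, adjusted p = 0.0381), with 5 lower and Shank3 higher at an unadjusted p under 0.05. None of the 5 transcription factors passed. Erg had −1.22 ± 0.32 (adjusted p = 0.107) and Tal1 −0.58 ± 0.45 (adjusted p = 0.526).

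Other members were lower without being called. Esam, a junction adhesion molecule, Robo4, an endothelial guidance receptor, Fgd5, an exchange factor for Cdc42, Myct1, Rasip1 and Ushbp1 had log2 differences from −1.30 to −1.0, with every cabo tumor below every control and adjusted p from 0.0610 (Esam) to 0.127 (Ushbp1). Adgrl4 had −0.90 ± 0.27 (adjusted p = 0.142). Eng, Clec14a, Cd93, S1pr1, Podxl and Arhgef15 had smaller differences, from −0.41 (S1pr1) to −0.24 (Clec14a), and Ptprb had 0.71 ± 0.33 (adjusted p = 0.292). No member was called higher.

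**Figure D2:**
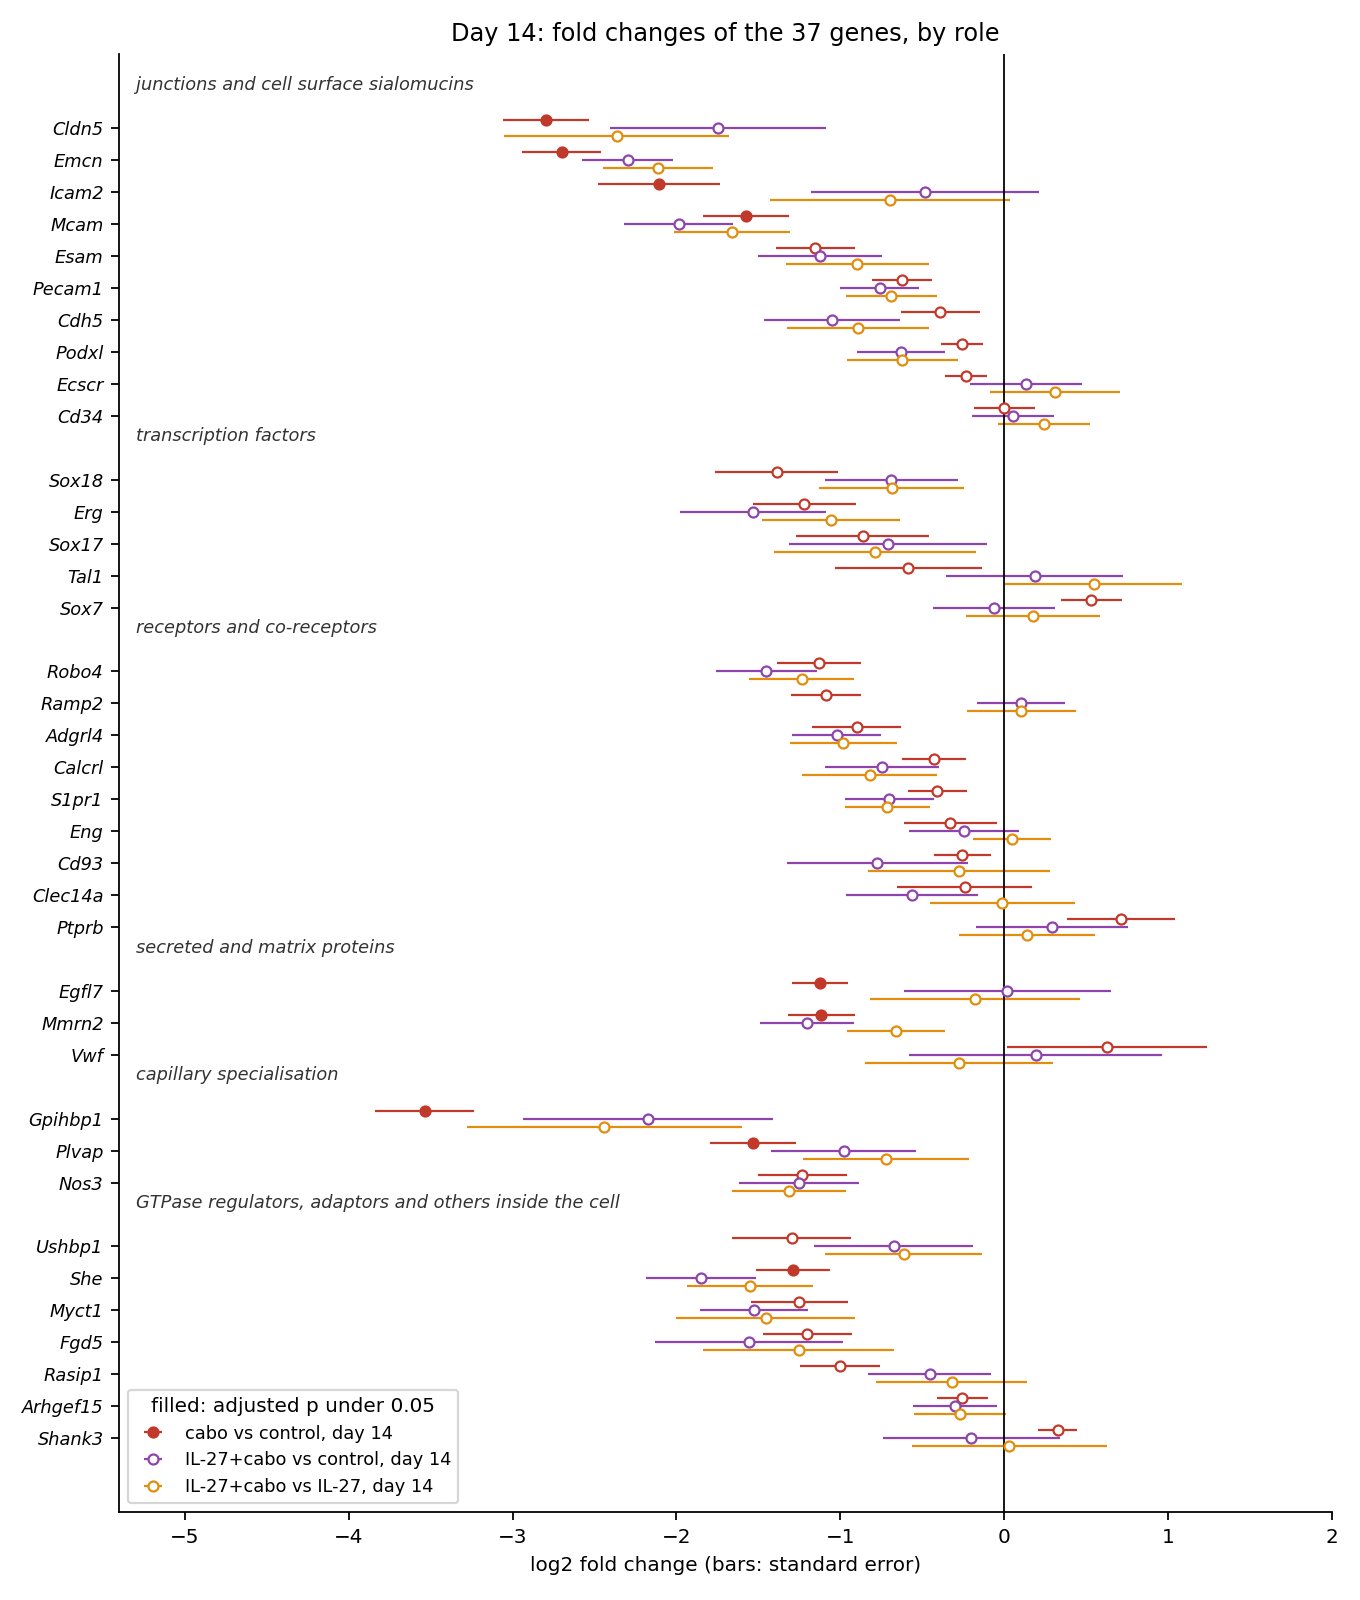
Log2 fold change with its standard error (horizontal axis) for each of the 37 members, ordered by role, in the cabo and IL-27+cabo comparisons with D14 control, which share their 3 control tumors, and in IL-27+cabo against IL-27; filled points passed the adjusted threshold. The points run from −3.54 for Gpihbp1 to 0.71 for Ptprb under cabo, and no point of either IL-27+cabo comparison is filled.

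The count of 9 depended on the fit. It was 3 to 5 when any of mice 3, 5, 7, 21, 25 or 27 was left out, and Gpihbp1, Emcn and Cldn5 were called in each of those 6 fits. Skeletal muscle markers moved with cabo: all 15 were higher at an unadjusted p under 0.05 and 7 rose, with a median log2 fold change of 4.29. Their summed level was 8.85 to 162.7 CPM in D14 controls and 1302 to 2008 CPM in D14 cabo tumors, with 1 marker at 0 in mouse 3 and none at 0 in the others. With the muscle level as a covariate no member and no other gene was called, 17 members were lower at an unadjusted p under 0.05, and the median log2 fold change was −1.33. Every cabo tumor lay above every control tumor in its muscle level, so muscle RNA and cabo cannot be told apart in this comparison.

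Other endothelial genes gave a mixed picture at D14 under cabo. Of the VEGF, Notch and Tie genes 3 of 6 fell (median log2 fold change −1.34). Lymphatic markers, which share Flt4 and Lyve1 with the sinusoidal list, fell in 5 of 7 (median −2.80), venous markers rose in 2 of 5 (median 0.36), and of 7 arterial markers 1 fell (median 0.26). Sinusoidal markers had 1 of 5 fall and 1 rise, and 9 further endothelial genes likewise had 1 each way. Of 10 mural cell markers 1 fell (median −0.23). Erythroid markers were negative in all 6 tested, 4 of them at an unadjusted p under 0.05 (median −2.35), and marrow myeloid markers were lower at an unadjusted p under 0.05 in 3 of 6 tested (median −1.37), with none called in either list, and their part in the endothelial values was not tested. No marker of all leukocytes, of macrophages, of adipocytes, of osteoblasts or of epithelial tumor cells was called, and of 4 megakaryocyte markers tested 1 rose.

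The promoters of the most strongly called members with an entry in RefSeq (GRCm38.p6) are shown because these genes moved together under cabo and ETS and SOX factors are among the members. Each window is the 250 bases before the RefSeq start on the plus strand: Emcn at chr3:137340828-137341077, Cldn5 at chr16:18776597-18776846 and Egfl7 at chr2:26580833-26581082, at 1 of its 3 listed starts. GENCODE M21 places the last 11 bases of the Emcn window, 27 bases of the Egfl7 window and none of the Cldn5 window in exons. Capitals mark matches, on either strand, to AGGAAG (an ETS core). They also mark matches to ACAAT, a core of sites bound by SOX proteins. The last motif searched was AGATAA, a site bound by GATA proteins.
Emcn: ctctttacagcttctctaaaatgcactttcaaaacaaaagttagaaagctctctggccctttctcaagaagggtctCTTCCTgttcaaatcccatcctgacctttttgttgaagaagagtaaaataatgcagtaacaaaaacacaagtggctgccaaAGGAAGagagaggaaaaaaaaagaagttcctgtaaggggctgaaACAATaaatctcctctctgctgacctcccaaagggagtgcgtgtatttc
Cldn5: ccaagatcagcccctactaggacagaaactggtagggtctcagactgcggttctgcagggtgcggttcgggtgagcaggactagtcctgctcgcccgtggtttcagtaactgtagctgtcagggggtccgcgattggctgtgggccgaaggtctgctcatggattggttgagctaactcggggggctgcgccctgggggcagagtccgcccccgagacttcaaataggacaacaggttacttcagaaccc
Egfl7: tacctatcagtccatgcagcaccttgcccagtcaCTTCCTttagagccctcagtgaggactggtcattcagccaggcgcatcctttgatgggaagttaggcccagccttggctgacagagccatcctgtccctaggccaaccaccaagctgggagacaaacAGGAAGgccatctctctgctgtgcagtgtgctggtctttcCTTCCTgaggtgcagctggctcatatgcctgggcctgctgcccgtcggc

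The Emcn window holds 2 ETS matches and 1 SOX match, the Egfl7 window 3 ETS matches, and the Cldn5 window none of the motifs, so the called genes do not share these letters. RefSeq windows were found for 18 members, with 23 windows in all. AGGAAG was in 12 of the 23 (52.2%) against 29.5% of 32851 promoters, ACAAT in 7 (30.4%) against 27.7%, and AGATAA in 3 of the 23 against 9.99%. No matches overlap in the windows shown, and a match is a description of the sequence only.

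IL-27+cabo at D14 gave a similar picture with wider spread. Against control, edgeR called 0 of 37 members, where 0.0427% of all genes were called lower. Without adjustment 16 were lower at p under 0.05 (background 1.97%), in 17 every tumor lay below every control (background 7.58%), and DESeq2 called 6 (with 1.95% of all genes). The median log2 fold change was −0.71. Markers of epithelial tumor cells were higher at an unadjusted p under 0.05 in 3 of 5 (median 1.43) and of marrow myeloid cells lower in 3 of 6 tested (median −0.73), none of them called, and their part in the endothelial values was not tested. This comparison shares its 3 control tumors with that of cabo. Emcn was at 3.63, 3.14 and 3.99 CPM in mice 20, 22 and 24, all far below the controls listed above (log2 fold change −2.30 ± 0.28, 0.203 of control, adjusted p = 0.0624). Mcam was at 7.96, 12.7 and 14.7 CPM, also below every control (−1.99 ± 0.33, 0.252 of control, adjusted p = 0.130).

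Mouse 20 set much of the spread. Gpihbp1 was at 5.65, 0.799 and 1.23 CPM and Cldn5 at 5.04, 1.08 and 1.28 CPM in mice 20, 22 and 24, so mice 22 and 24 lay within the range of the cabo tumors and mouse 20 lay above it. Egfl7 was at 32.4 CPM in mouse 20 and 6.41 and 8.00 CPM in the others. Without mouse 20, 0.899% of all genes were called in either direction, and 6 members were lower by the adjusted test: Gpihbp1 (−3.56, adjusted p = 0.0131), Cldn5 (−2.86, adjusted p = 0.0170), Emcn (−2.34, adjusted p = 0.0170), Plvap (−1.62, adjusted p = 0.0252), Mcam (−1.79, adjusted p = 0.0363) and Egfl7 (−1.15, adjusted p = 0.0483). Leaving out any other tumor gave 0 called, and without control mouse 5 the 16 members lower at an unadjusted p under 0.05 became 9. Skeletal muscle markers summed to 4922, 4406 and 1655 CPM in these mice, in that order. With the muscle level as a covariate no member was called, 2 members were lower at an unadjusted p under 0.05 and the median log2 fold change was −1.21.

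**Figure D3:**
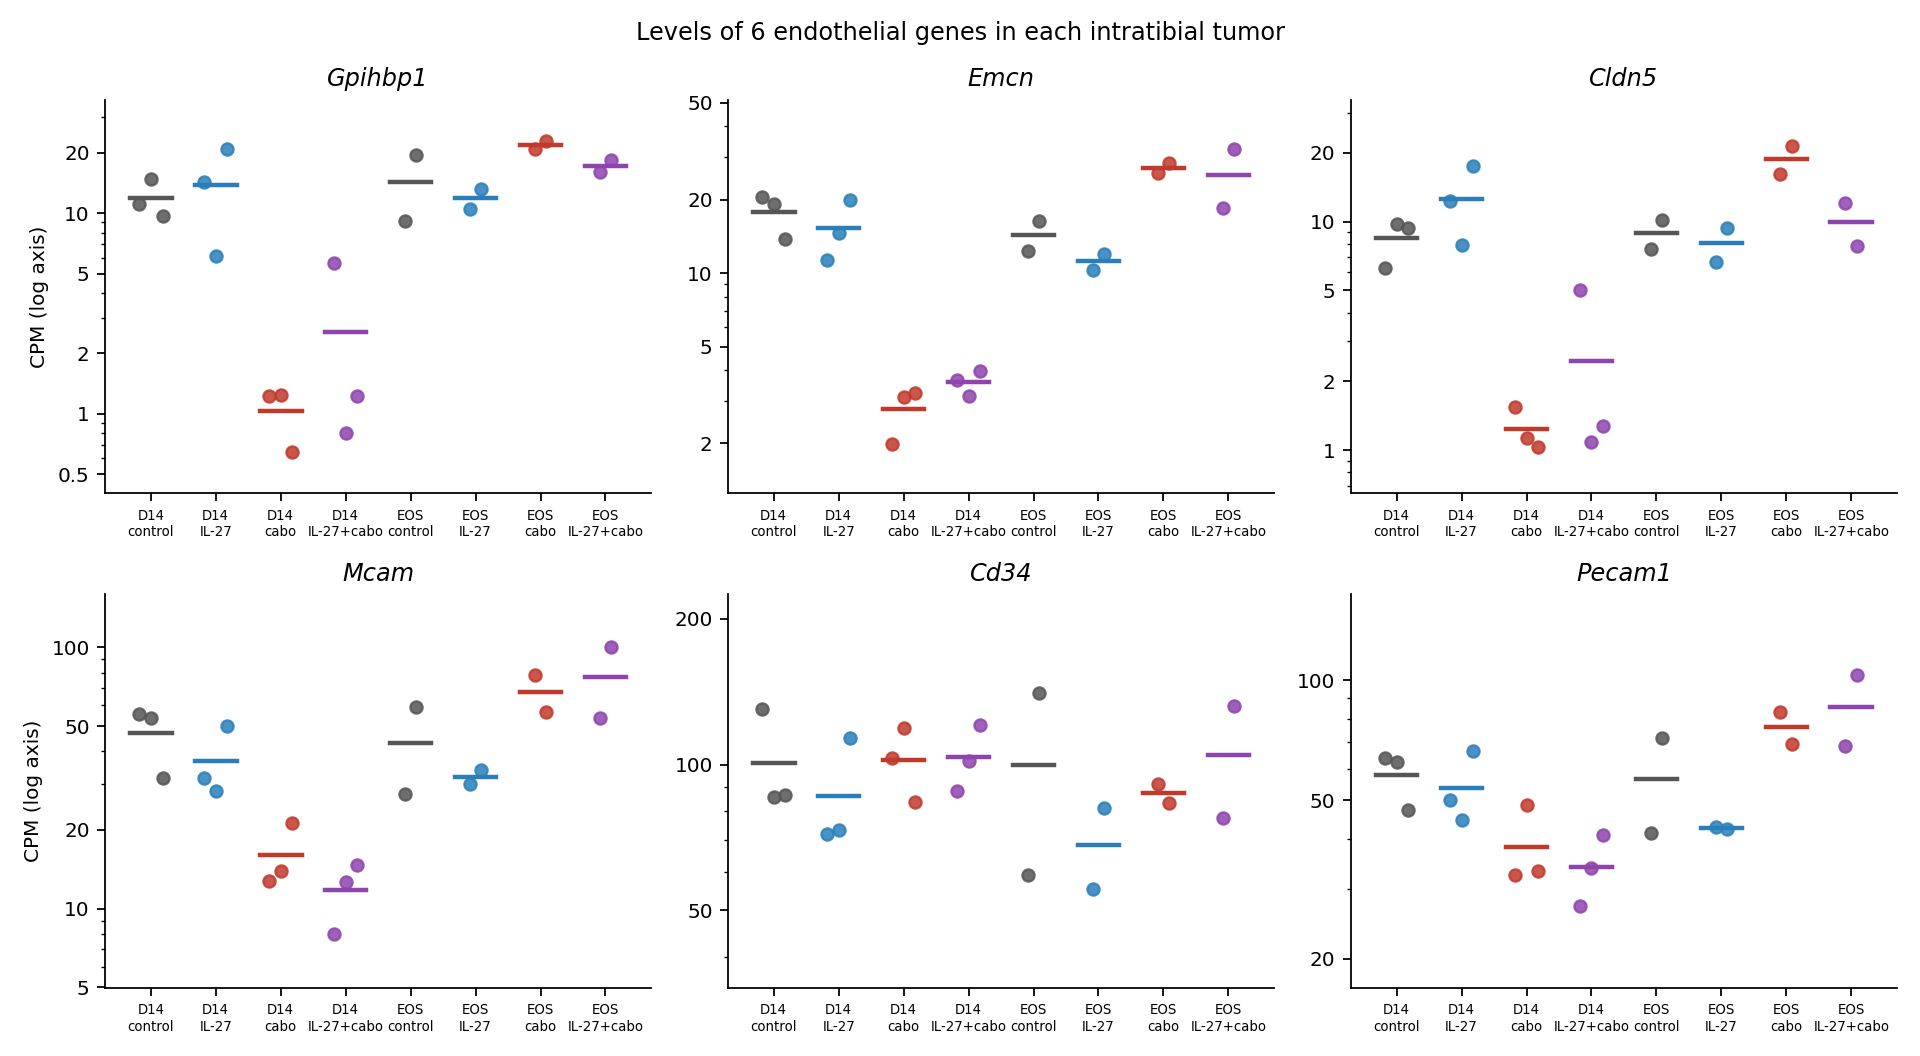
CPM on a log axis (vertical) of Gpihbp1, Emcn, Cldn5, Mcam, Cd34 and Pecam1 in each of the 20 intratibial tumors (points) by group, with the group mean as a line. Gpihbp1, Emcn and Cldn5 dip in the D14 groups under cabo, with mouse 20 at 5.65 CPM for Gpihbp1, while Cd34 stays between 55.3 and 140.7 CPM in all 20 tumors.

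Compared with IL-27 alone, which shares no tumor with the comparison of cabo and control, IL-27+cabo gave 0 members called by edgeR. There were 12 lower at an unadjusted p under 0.05 (background 1.67%), in 14 the groups did not overlap (background 5.7%), and DESeq2 called 3 (with 0.538% of all genes). Emcn was at 11.3, 14.6 and 20.03 CPM in IL-27 tumors, and IL-27+cabo stood at 0.231 of that level (log2 fold change −2.11 ± 0.34, adjusted p = 0.545). Mcam was at 31.7, 28.2 and 50.0 CPM with IL-27 (−1.66 ± 0.36, adjusted p = 0.907). Without mouse 20, 17 members were lower at an unadjusted p under 0.05. That count was 8 without mouse 22, mouse 4 or mouse 8, and 10 without mouse 24 or mouse 6. No member was called in any of these fits. The median log2 fold change was −0.69 with all tumors and −0.51 without mouse 8. Skeletal muscle markers had positive log2 fold changes in all 15, 2 of them at an unadjusted p under 0.05 (median 2.31), with sums that overlapped through IL-27 mouse 8. Macrophage markers were positive in all 7 (median 0.96, 1 at an unadjusted p under 0.05) and leukocyte markers in all 6 (median 0.60, 0 at that p), and the mean log2 level of each list was higher in every IL-27+cabo tumor than in every IL-27 tumor. None of these markers was called, and their part in the endothelial values was not tested. Across both independent comparisons 28 of 37 members (75.7%) were lower with cabo in both, against 4910 of 18015 genes (27.3%). Of the 21 members lower at an unadjusted p under 0.05 in the first, 11 (52.4%) also were in the second, against 154 of 1684 genes (9.14%). Without mouse 20 these counts over members were 28 and 16. All 9 members that fell with cabo alone had negative values here too, from −2.44 to −0.18.

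Adding IL-27 to cabo gave few differences. IL-27+cabo against cabo gave 0 called by edgeR and by DESeq2, with 1 member at an unadjusted p under 0.05 in edgeR (background 1.92%) and 2 in DESeq2. That member was Ramp2, at 5.99, 5.65 and 5.46 CPM with IL-27+cabo against 3.12, 2.40 and 2.17 CPM with cabo (log2 fold change 1.19 ± 0.26, 2.28 times the cabo level, adjusted p = 0.788). All IL-27+cabo tumors were higher, mouse 20 among but not apart from them. Next was Icam2, at 3.97, 0.718 and 0.915 CPM with IL-27+cabo, where only mouse 20 stood above the cabo tumors by more than their spread (1.62 ± 0.79, adjusted p = 0.788). Without mouse 20 the difference of Icam2 was 0.38 ± 0.47 and that of Ramp2 1.12 ± 0.22, and Ramp2 was again the only member at an unadjusted p under 0.05. Without mouse 22 there were 4 higher, and without mouse 24 there were 1 lower and 1 higher. In the test of the IL-27 by cabo interaction 0 members were called and Ramp2 alone had an unadjusted p under 0.05 (1.19 ± 0.37, adjusted p = 0.952, background 1.88%). Icam2 followed with 1.42 ± 0.89 (adjusted p = 0.952), and without mouse 20 it had 0.21 ± 0.57, with 0 members called and 1 at an unadjusted p under 0.05.

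IL-27 alone at D14 gave 0 members called by edgeR and by DESeq2, with 1 lower at an unadjusted p under 0.05 in edgeR (background 1.85%) and 2 in DESeq2. The members' median was −0.16 on the log2 scale, and it lay between −0.28 (without mouse 7) and −0.04 (without mouse 5) when 1 tumor was left out. There were 4 lower at an unadjusted p under 0.05 without mouse 7 or mouse 8 and 0 without mouse 5. Mmrn2 was at 7.37, 8.41 and 8.17 CPM with IL-27 against 10.6, 14.9 and 10.2 CPM in controls, with no overlap (−0.56 ± 0.22, adjusted p = 0.9999). Its receptor gene Cd93 was at 44.2, 63.5 and 62.9 CPM against 104.8, 78.2 and 62.7 CPM, with overlapping ranges (−0.51 ± 0.23, adjusted p = 0.9999). The mean log2 level of leukocyte markers was 4.72 to 5.51 with IL-27 and 5.59 to 6.15 in controls, without overlap. Macrophage markers (5.52 to 6.72 against 6.11 to 7.28) and muscle markers (0.51 to 6.44 against −1.30 to 2.77) overlapped. Their part in the endothelial values was not tested.

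At EOS, after cabo had been stopped, 33 of 37 members had higher values in cabo-treated than in control tumors, and edgeR called 0. At an unadjusted p under 0.05, 7 were higher (background 4.54%), in 19 both cabo tumors lay above both controls (background 21.8%), and DESeq2 called 1, Cldn5 (with 1.16% of all genes). The median log2 fold change was 0.57 and all 9 members that fell at D14 were positive, from 0.06 to 1.07. Cldn5 was at 16.2 and 21.3 CPM (mice 19 and 23) against 7.57 and 10.2 CPM in controls (mice 13 and 9), 2.11 times control (1.07 ± 0.32, adjusted p = 0.472). Emcn was at 25.9 and 28.4 CPM against 12.4 and 16.4 CPM, 1.88 times control (0.91 ± 0.28, adjusted p = 0.475). Neither gene's ranges overlapped. Single tumors weighed on this comparison. Leaving out an EOS tumor leaves its group with 1, which is then assumed to vary like the other groups of the fit. The 7 members became 1 without control mouse 13 (median 0.24), 2 without cabo mouse 19 (median 0.30) and 14 without control mouse 9 (median 0.78). Skeletal muscle markers were higher in all 15, 14 of them at an unadjusted p under 0.05 and none called (median log2 fold change 5.76), and summed to 1008 and 129.2 CPM in mice 19 and 23 against 15.2 and 7.83 CPM in controls. Of 6 erythroid markers tested 3 were lower at an unadjusted p under 0.05 (median −1.53). Their part in the endothelial difference was not tested.

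IL-27+cabo at EOS, which shares the EOS controls, also gave 0 called by edgeR. There were 9 higher at an unadjusted p under 0.05 (background 7.36%), 15 did not overlap (background 21.6%), and DESeq2 called 5 (with 4.16% of all genes). The median was 0.56. Clec14a, a receptor of sprouting endothelium, was at 5.26 and 5.11 CPM (mice 16 and 28) against 0.716 and 1.55 CPM, 4.54 times control (2.18 ± 0.46, adjusted p = 0.178). Eng, the TGF-beta co-receptor endoglin, was at 38.3 and 57.0 CPM against 25.1 and 29.6 CPM (0.79 ± 0.21, adjusted p = 0.205). Each was higher in both treated tumors. The 9 members became 4 without mouse 28 (median 0.24), 20 without mouse 16 (median 0.81), 3 without control mouse 13 (median 0.28) and 15 without control mouse 9 (median 0.92). Skeletal muscle markers were higher in all 15 here too, 13 of them at an unadjusted p under 0.05 (median 3.94), with sums of 244.5 and 119.3 CPM. Macrophage markers had a median of 1.30 and erythroid markers one of −1.91, with 4 of 6 lower at an unadjusted p under 0.05. None of these markers was called, and their part in the endothelial values was not tested.

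IL-27 alone at EOS gave 0 called by edgeR and by DESeq2, 3 lower at an unadjusted p under 0.05 (background 1.68%) and 12 below without overlap (background 16.3%), with a median of −0.25. The median depended on which control was used. Without control mouse 9 it was 0.09 with 13 members below 0, and without control mouse 13 it was −0.51 with 29 members below 0. Without IL-27 mouse 12 the median was −0.40. Erg, the ETS factor, was at 4.92 and 3.68 CPM against 6.61 and 7.86 CPM (−0.76 ± 0.26, adjusted p = 1.0). Sox7 was at 2.15 and 3.62 CPM against 3.98 and 9.08 CPM (−1.18 ± 0.46, adjusted p = 1.0).

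Within cabo-treated mice, members were far higher at EOS than at D14. In this comparison, which shares the D14 cabo tumors with that of cabo and control, 18 of 37 rose and none fell, against 0.945% of all genes called higher. At an unadjusted p under 0.05, 27 were higher (background 8.04%), and in 30 both EOS tumors lay above all 3 D14 tumors (background 16.3%). The median log2 change was 1.32, with 33 positive. Cldn5 went from 1.04 to 1.55 CPM at D14 to 16.2 and 21.3 CPM at EOS, 15.4 times the D14 level (3.94 ± 0.23, adjusted p = 0.00181). Gpihbp1 reached 20.9 and 22.96 CPM, 21.5 times its D14 level (4.43 ± 0.28, adjusted p = 0.00181). Emcn was 9.91 times its D14 level (3.31 ± 0.22, adjusted p = 0.00189).

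The rise took in all 3 capillary genes, 6 of 10 junction and sialomucin genes, 2 of 3 secreted and matrix genes, 3 of 7 genes inside the cell, 3 of 9 receptors (Robo4, Cd93 and Ramp2) and, of 5 transcription factors, Erg (1.76 ± 0.17, adjusted p = 0.00798). Pecam1 also rose (1.02 ± 0.18, adjusted p = 0.0494). The smallest differences were those of Shank3, a scaffold protein, at 35.3, 36.8 and 39.2 CPM at D14 and 35.2 and 36.0 CPM at EOS (−0.04 ± 0.08, adjusted p = 0.882), and of Ptprb, the phosphatase VE-PTP, at 12.2, 23.3 and 14.8 CPM and then 23.5 and 12.6 CPM (0.13 ± 0.34, adjusted p = 0.896). The ranges of both overlapped. The count was 5, 16, 8, 10 and 7 without mice 21, 25, 27, 19 and 23. Of the VEGF, Notch and Tie genes 4 of 6 rose (median 1.57). Muscle markers went the other way in all 15 (median −1.50), with none called and 3 lower at an unadjusted p under 0.05. Mean log2 levels of other marker lists also moved without overlap from D14 to EOS. Leukocyte markers went from 5.78 to 6.02 down to 4.99 to 5.33, and macrophage markers from 6.745 to 7.14 down to 6.385 to 6.415. Marrow myeloid markers went from −3.49 to −2.25 down to −4.51 to −4.28, and erythroid markers from −1.46 to −0.83 up to −0.18 to −0.16. Their part in the endothelial values was not tested.

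With IL-27+cabo the same comparison gave 0 called by edgeR, 17 higher at an unadjusted p under 0.05 (background 1.04%), 27 without overlap (background 11.5%) and 11 called by DESeq2 (with 1.55% of all genes), with a median of 1.31. The 17 members became 26 without mouse 20 and 8 without mouse 28. Skeletal muscle markers summed to 244.5 and 119.3 CPM at EOS against 1655 to 4922 CPM at D14, with no overlap, and all 15 were lower at an unadjusted p under 0.05 (median log2 fold change −4.40). The 4 marrow myeloid markers tested had a median of −2.64. None of these markers was called, and their part in the endothelial values was not tested. Emcn reached 18.6 and 32.2 CPM, 6.91 times its D14 level (2.79 ± 0.38, adjusted p = 0.385). Mcam reached 53.9 and 100 CPM (2.69 ± 0.41, adjusted p = 0.411). Every EOS tumor was above every D14 tumor for both. In mice without cabo no member was called between the times. In controls 0 were called by edgeR, with 1 at an unadjusted p under 0.05 (background 13.1%) and a median of −0.04, and without EOS mouse 9 there were 5 lower and the median was −0.38. Without EOS mouse 13 the median was 0.16 and without D14 mouse 5 it was 0.03. Ecscr, the member at that p with all controls, went from the values given above to 5.44 and 8.36 CPM (−0.57 ± 0.24, adjusted p = 0.377). S1pr1, the sphingosine-1-phosphate receptor that stabilises junctions, went from 39.2, 60.1 and 40.1 CPM to 33.8 and 34.6 CPM (−0.44 ± 0.21, adjusted p = 0.435). With IL-27 alone 0 were called by edgeR, 1 had an unadjusted p under 0.05 (background 5.05%) and the median was −0.17. That count became 4 lower without mouse 6, 3 lower and 1 higher without mouse 4, and 0 without mouse 8 (median −0.02). Sox18 went from 4.58, 5.60 and 10.1 CPM to 3.17 and 3.38 CPM (−1.04 ± 0.40, adjusted p = 0.818) and Mmrn2 to 9.89 and 12.6 CPM (0.50 ± 0.24, adjusted p = 0.818).

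**Figure D4:**
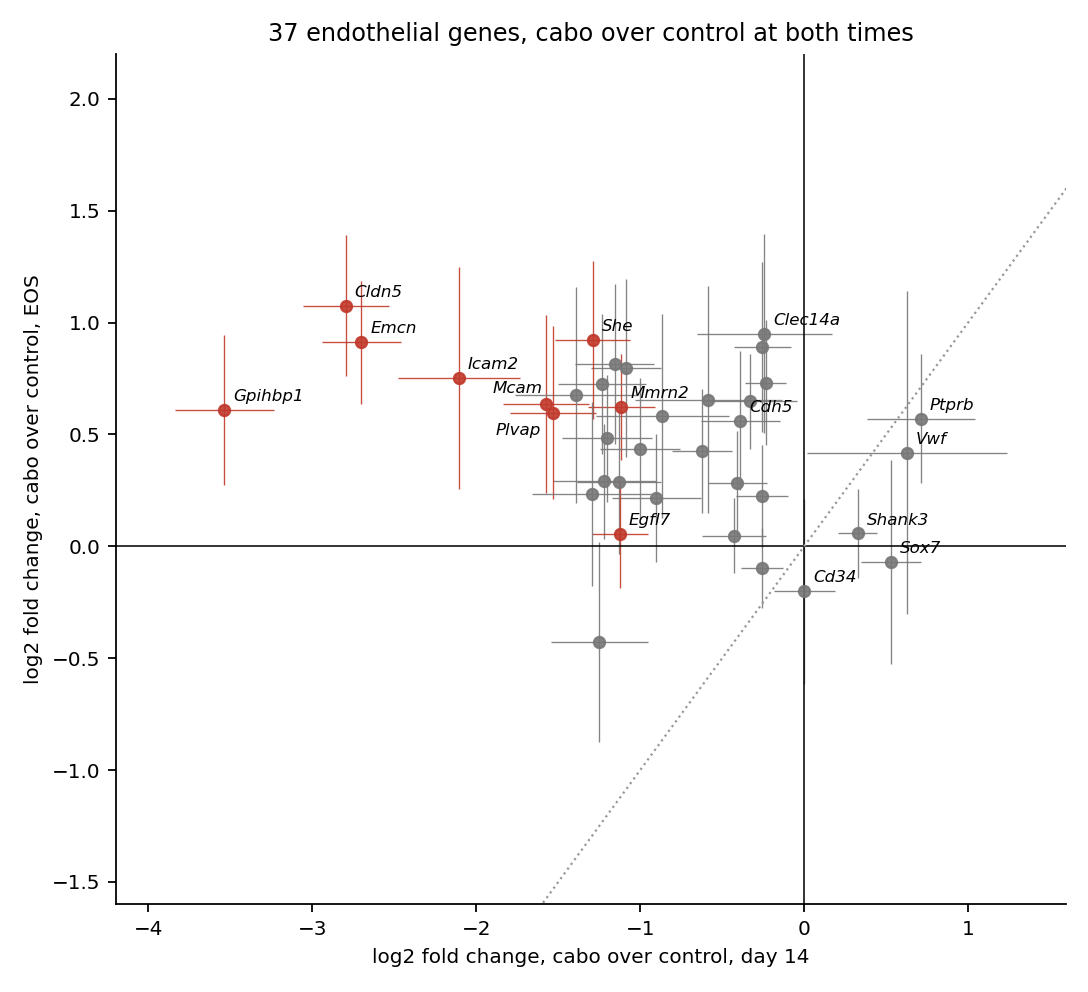
For each member, the log2 fold change of cabo against control at D14 (horizontal axis) and at EOS (vertical axis), which use different tumors, with standard errors as bars, the 9 genes called at D14 in red and equal changes on the dotted line. Most points lie left of 0 and above 0: 32 of 37 are negative at D14 and 33 of 37 positive at EOS.

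Whether the effect of cabo differed between D14 and EOS was tested directly, though EOS was the endpoint of each mouse and not a fixed day. Over the 20 intratibial tumors, the change in the cabo effect from D14 to EOS was called for 1 member, Emcn (3.60 ± 0.44 on the log2 scale, adjusted p = 0.0017), against 0.0788% of all genes. At an unadjusted p under 0.05, 21 members had a positive change (background 2.05%), and the median was 1.23. The 21 became 13 without EOS cabo mouse 19. The smallest were Podxl at 0.14 ± 0.37 and Ptprb at −0.16 ± 0.58, both with an adjusted p of 0.9999. For IL-27+cabo the same test, with the same controls, called Emcn again (3.14 ± 0.43, adjusted p = 0.00573) against 0.0696% of genes, with 23 members at an unadjusted p under 0.05 (background 3.88%) and a median of 1.37. Cd34 (0.03 ± 0.48) and Sox7 (0.05 ± 0.56) were smallest. Without EOS control mouse 13 no member was called for IL-27+cabo, without mouse 20 there were 4 and without mouse 16 there were 2. The 23 members became 15 without mouse 13 and 26 without mouse 20.

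The SoxF factors, which are paralogues with partly shared roles in vessel identity, did not move as a family under cabo at D14. Sox7 was at 6.46, 6.07 and 4.44 CPM in controls and 9.19, 8.34 and 7.32 CPM under cabo, higher in every tumor (0.53 ± 0.19, adjusted p = 0.189). Sox18 was at 8.69, 8.01 and 4.16 CPM against 3.19, 3.36 and 1.52 CPM, lower in every tumor (−1.39 ± 0.38, adjusted p = 0.118). Sox17 was low, at 1.13, 2.10 and 2.32 CPM against 0.991, 1.46 and 0.641 CPM, with overlap (−0.86 ± 0.41, adjusted p = 0.296). None of these passed the threshold. At EOS under cabo Sox18 was at 11.7 and 5.09 CPM, Sox17 at 3.55 and 3.22 CPM and Sox7 at 6.67 and 5.84 CPM. Sox18 with Sox17 had thus higher values than at D14 (1.67 ± 0.44, adjusted p = 0.125, and 1.74 ± 0.36, adjusted p = 0.0687) and Sox7 lower ones (−0.38 ± 0.16, adjusted p = 0.286). An opposite-strand transcript, Gm37587, overlaps Sox17.

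In subcutaneous tumors members moved both ways with IL-27. Against control, 5 fell (background 16.5% of 19360 genes called lower) and 1 rose (background 3.52%), out of 37. Before adjustment, 11 were lower at p under 0.05 (background 23.1%) and 12 higher (background 12.3%). In edgeR the called shares were thus no larger than those of all genes, while DESeq2 called 11 lower and 12 higher, with 29% of all genes called in either direction. The median log2 fold change was −0.10. Shank3 was at 1.24 and 1.27 CPM with IL-27 and 13.4 and 18.8 CPM in controls, 0.0782 of control (−3.68 ± 0.45, adjusted p = 0.00261). Rasip1, a protein needed for vessel lumens to form, was at 0.887 and 0.885 CPM against 11.0 and 7.33 CPM (−3.37 ± 0.51, adjusted p = 0.00487), and its exons overlap those of Izumo1. Nos3 was at 0.152 and 0.962 CPM against 9.24 and 12.1 CPM (−4.26 ± 0.88, adjusted p = 0.0163), and its exons overlap those of Atg9b on the other strand.

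Eng (3.86 and 11.99 against 50.3 and 43.6 CPM, adjusted p = 0.0209) and Cldn5 (0.405 and 0.744 against 6.05 and 2.22 CPM, adjusted p = 0.0343) also fell in this comparison. Adgrl4, an adhesion G protein-coupled receptor of endothelium, rose from 14.9 and 30.7 to 55.3 and 113.1 CPM, 3.70 times control (1.89 ± 0.51, adjusted p = 0.0412). The groups did not overlap for any of these. Arhgef15 (11.8 and 19.9 against 16.6 and 15.6 CPM, −0.02 ± 0.40) and Podxl (100.3 and 103.5 against 77.5 and 123.4 CPM, 0.02 ± 0.35) overlapped and differed least. Sox7 (9.93 and 18.1 against 4.63 and 6.71 CPM) and Sox17 (1.69 and 6.40 against 0.715 and 1.10 CPM) had higher values and Sox18 (0.469 and 1.83 against 5.02 and 3.63 CPM) lower ones, none of them called.

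The direction of a member in the subcutaneous comparison ran with the GC content of its exons. Over the 37 members the correlation of log2 fold change with GC was r = −0.76 (Spearman −0.76), as a description over genes of the same 4 libraries, and over 19334 genes with a value it was −0.58. Of the 18 members above the median GC content of 53.9%, 15 had negative values (median −1.13), and of the 19 others 5 did (median 1.13). With offsets for GC content and length the correlation over members was −0.08, with a median log2 fold change of 0.64. In that fit 0 members fell and 5 rose (Mcam, Tal1, Sox17, Ramp2 and Arhgef15), while 9.85% of all genes were called in either direction. Under cabo at D14 the correlation with GC was −0.18.

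The subcutaneous IL-27 tumors also differed between themselves, with 20 of 37 members more than 1 log2 unit lower in IL-27 replicate 1 than in replicate 2. Markers of skeletal muscle were higher in 14 of 15 and of marrow myeloid cells in 5 of 6 tested by the adjusted test, and the muscle markers summed to 1047 and 402.6 CPM with IL-27 against 16.04 and 4.43 CPM in controls. Leaving out a tumor leaves a group of 1 whose spread is taken from the other group, so these counts are weak. Leaving out IL-27 replicate 1 gave 3 lower and 6 higher, IL-27 replicate 2 gave 10 lower, control replicate 1 gave 2 lower and control replicate 2 gave 3 each way. The part of muscle and marrow RNA in the IL-27 difference was not tested.

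**Figure D5:**
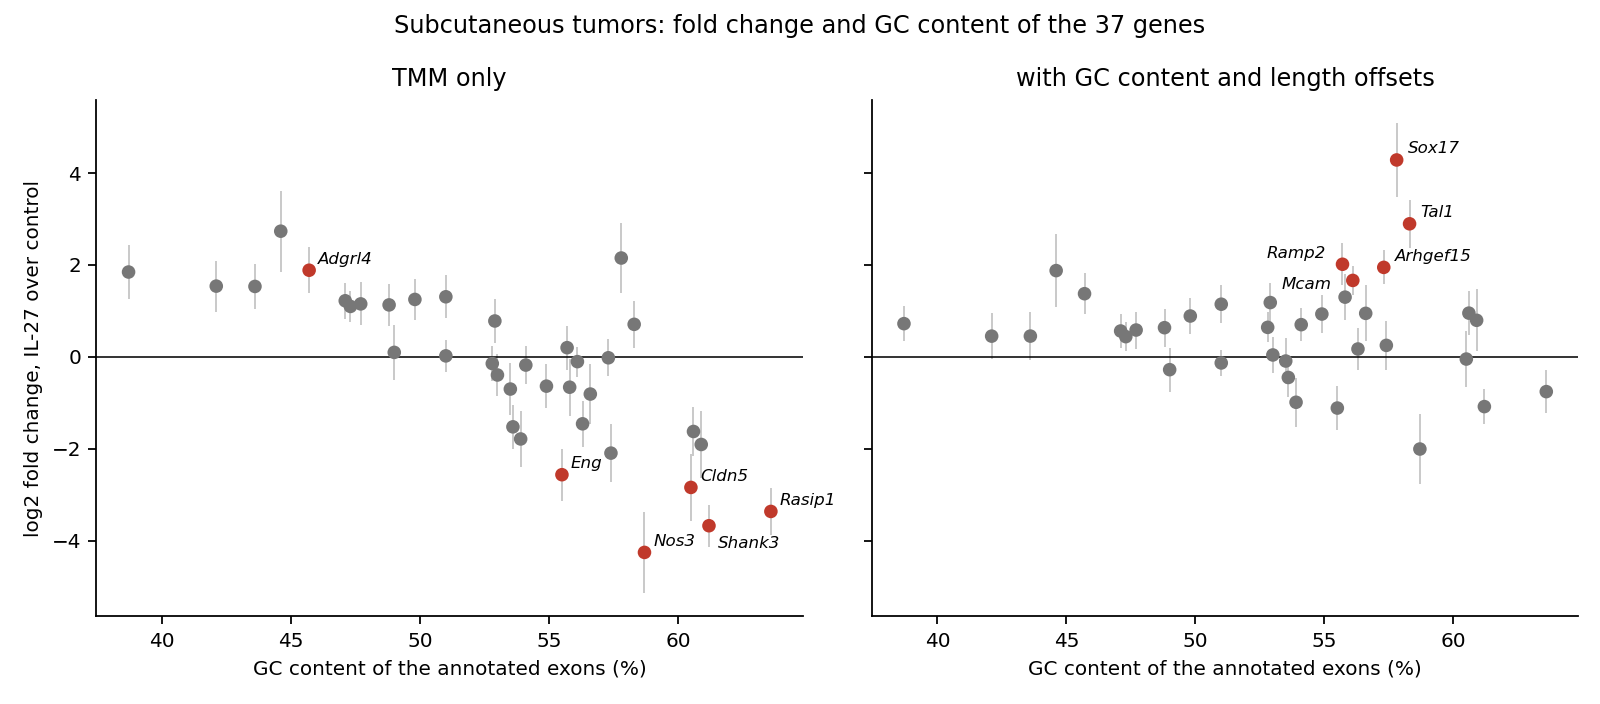
Log2 fold change of IL-27 against control in subcutaneous tumors (vertical axis) against exon GC content in percent (horizontal axis) for the 37 members, without (left) and with (right) offsets for GC content and length, with standard errors as bars and called genes in red. Without offsets the points slope down (r = −0.76) and with offsets they do not (r = −0.08).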

How the data were processed

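RNA-seq counts per gene were what the authors deposited, as whole numbers with no normalization. Per the paper's methods, libraries were stranded poly(A), sequenced paired-end and aligned with HISAT2. The processing notes list FastQC, HISAT2, StringTie and DESeq2 and a human build, GRCh38, while the identifiers are mouse. The counting program, strand setting and annotation were not given in the sources used here. Of 55401 identifiers 55141 matched GENCODE M21, which gave symbols, lengths and GC content, and 260 did not. Between 30.4% and 35.5% of values from 1 to 20 were multiples of 4 in each library. The cause is not known, and counts divided by 4 were an alternative.

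Each comparison was tested in edgeR 4.0.16 (R 4.3.3) on its own tumors, with filterByExpr (smallest count 10), TMM factors, the quasi-likelihood F test and Benjamini-Hochberg adjustment over all genes tested. The EOS comparisons shared a fit of 8 tumors, the interaction used the 12 D14 tumors and the changes over time all 20. Standard errors are the absolute log2 fold change over the square root of F. Log2 CPM used a prior count of 2. P-values measure the spread between these samples. Alternatives were DESeq2 1.42.0, RLE size factors, no filter, leave-one-out, a shared intratibial fit, a muscle covariate, counts over 4, a replicate block and offsets for GC content and length (splines with 5 degrees of freedom).

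Values in every tumor were given for the 3 called members with the smallest p, the 2 with the smallest change and any called against the majority, or the 2 with the smallest p where none was called, and for the SoxF genes. Some further members were chosen after their values were seen. The members and lists were chosen with earlier results of these data known. The scripts were tested on simulated data.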

Additional observations from a re-analysis of the deposited data

Results flagged for a closer look

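The difference in the cabo effect between EOS and D14 was larger than the spread between tumors for Emcn, by a test of the difference itself in edgeR. The change was 3.60 on the log2 scale (12.1 times) with cabo and 3.14 (8.79 times) with IL-27+cabo, and these share all control tumors. Emcn was lower than control in all 6 D14 tumors under cabo and higher than both EOS controls in all 4 EOS tumors of cabo-treated mice. No other member passed the adjusted threshold in edgeR, while DESeq2 called 8 and 11 members in these tests. With cabo 5 of the 37 members had a negative change.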

How the results depend on the processing

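Counts of called members moved with the fit, and the causes were not tested. For cabo at D14 (9 called) DESeq2 gave 21 (with 7.21% of all genes called in either direction), no filter 3, the shared intratibial fit 3, the muscle covariate 0 and leave-one-out 3 to 5. For IL-27+cabo against control at D14 (0) DESeq2 gave 6, the shared fit 5 and leave-one-out 0 to 6, and against IL-27 DESeq2 gave 3. At EOS DESeq2 gave 1 for cabo and 5 for IL-27+cabo. For EOS against D14, cabo (18) gave 6 without a filter and 5 to 16 with leave-one-out, and IL-27+cabo (0) gave 11 with DESeq2. The change with cabo (1) gave 8 with DESeq2 (0.375% of genes), and that with IL-27+cabo (1) gave 11 with DESeq2 (1.08%), 2 with RLE factors and 0 to 4 with leave-one-out. Subcutaneous IL-27 (6) gave 23 with DESeq2 (11 lower, 12 higher), 12 with counts over 4 (6 each way) and 2 to 10 with leave-one-out. More members were called higher than lower with GC offsets (5, 9.85% of all genes) and with the replicate block and GC offsets (7, 11.5% of all genes). The subcutaneous median log2 fold change was 0.07 without IL-27 replicate 1 and −0.50 without IL-27 replicate 2. The replicate block alone gave 13, as 9 lower and 4 higher, with 21.9% of all genes called. Under the block with GC offsets the log2 fold change of Cldn5 was 0.01. The subcutaneous numbers were treated as shared labels and not as pairs: the deviations of equally numbered tumors correlated at r = 0.03 over 19360 genes. Gpihbp1, Emcn and Cldn5 at D14 under cabo were called under DESeq2, RLE factors, no filter, counts over 4, the shared fit and all leave-one-out fits, but not with the muscle covariate (adjusted p = 0.468, 0.473 and 0.468). Depth was not varied at EOS, and there are only 2 tumors a group there and under the skin.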
